A study of Mus musculus with 12 samples.

Results

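The 10 genes Abca1, Abcg1, Scarb1, Nr1h2, Nr1h3, Mylip, Lpl, Cd36, Plin2 and Soat1 carry much of a macrophage's traffic in cholesterol and fatty acids. They were taken by symbol from a list that had been drawn up with earlier results of these data known, and all 10 were present among the 12483 genes of the deposited count table and among the 12231 genes tested. RNA came from RAW264.7 cells, a mouse macrophage line, in 4 groups of 3 libraries: NRE1-deleted clones (KO) stimulated for 6 h with 10 ng/mL LPS plus 50 ng/mL IFN-gamma, KO clones in medium, wild-type clones (WT) stimulated alike, and WT clones in medium. LPS is a bacterial cell wall component and IFN-gamma a lymphocyte cytokine. The KO groups held clones 1A, 1B and 2 and the WT groups clones 1, 2 and 3, with 1 library per clone and condition. Per the labels' protocols, the cells received CRISPR constructs on either side of NRE1, were selected by GFP and Puro, and were grown from single cells. The labels neither expand the name NRE1 nor say how KO clones 1A and 1B are related, so no targeted gene could be checked.

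Macrophages take up cholesterol and fatty acids from lipoproteins and dying cells, store the excess as esters in lipid droplets, and export cholesterol to lipoprotein particles. The liver X receptors LXR-alpha (Nr1h3) and LXR-beta (Nr1h2) are nuclear receptors that bind oxidised cholesterol and switch on the export pumps Abca1 and Abcg1 and the ubiquitin ligase Mylip, which limits lipoprotein uptake. Fatty acid handling genes such as Cd36, Lpl and Plin2 are classic targets of the PPAR nuclear receptors.

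Total counts per library ran from 10624591 to 14388590. All 8 macrophage markers looked for were in the table, with a summed level of 4380 to 18700 CPM (counts relative to library totals scaled by TMM factors) over the libraries, and none of the fibroblast, epithelial, adipocyte or hepatocyte markers was listed. Of the B cell, T or NK cell and neutrophil markers 1 each was listed, Blnk, Lck and S100a8. KO clones 1A and 1B stood closer together than any other pair: the SD of their log2 differences over genes was 0.169 under LPS/IFN-gamma and 0.184 in medium, against 0.356 to 0.391 for pairs with KO clone 2 and 0.504 to 0.665 between WT clones. Because 1A and 1B may not be independent clones, results between genotypes are also given with their counts summed. The labels do not say how the cultures were run, so p-values measure the spread between these libraries, part of which may be technical.

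Genes of the list changed under LPS/IFN-gamma in both genotypes. In KO clones 5 of the 10 genes passed an adjusted p of 0.05 in edgeR's quasi-likelihood test, where 54.3% of all tested genes did. Abca1, Nr1h2 and Soat1 rose (26.7% of all genes did), and Scarb1 and Mylip fell (27.6% of all genes). Among WT clones 4 of the 10 passed, against a background of 47.4%: Abca1, Nr1h2 and Soat1 rose (23.8% of all genes) and Scarb1 fell (23.6%). Neither share stands far from its background. A fit with clone as a block compares each clone with itself. It called all 10 genes in KO clones, where 66.1% of all genes passed: 6 were higher (background 32.1%) and 4 lower (34.0%). In WT clones it called 8, against 61.2% of all genes: 6 were higher (background 29.8%) and 2 lower (31.4%). The KO call of Lpl was lost when the counts of KO 1A and 1B were also summed. The median log2 fold change of the 10 genes was 0.65 in KO clones and 0.60 in WT clones, and that of all tested genes was -0.01 in both.

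Between genotypes the list held few calls. Under LPS/IFN-gamma 2 of the 10 genes differed, where 4.64% of all tested genes did: Abca1 was higher in KO clones (1.13% of all genes were) and Lpl lower (3.51%). In medium 1 of the 10 differed, Lpl, which was again lower in KO clones; 1.21% of all genes differed, 0.352% higher and 0.858% lower. None of these 3 calls was left when the counts of KO 1A and 1B were summed. The median log2 difference of the 10 genes was -0.69 under LPS/IFN-gamma and -0.29 in medium, and that of all tested genes -0.02 and -0.01. The macrophage markers summed to 5380 to 11300 CPM in stimulated KO clones, against 8940 to 18400 CPM in stimulated WT clones, and to 4380 to 13700 CPM in KO medium, against 8130 to 18700 CPM in WT medium. Lyz2, the highest marker in every group, averaged 4255 CPM in stimulated KO clones and 10905 CPM in stimulated WT clones. In medium it averaged 4818 and 10038 CPM. Cd14 went the other way, at 2233 CPM in stimulated KO and 1541 CPM in stimulated WT clones, and 465 and 423 CPM in medium. Every other marker had a lower mean in KO than in WT clones in both conditions. The part of these markers in the genotype differences was not tested. In bulk RNA fewer cells with a transcript and less transcript per cell cannot be told apart. The response itself differed between KO and WT for 0 of the 10 genes and 0 of all 12231 (background 0%). At an unadjusted p below 0.05 the count over all genes was 611, which is 5.0% of them; DESeq2 called 28 genes and the clone block 40 (background 0.327%), none of them in the list.

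**Figure D1:**
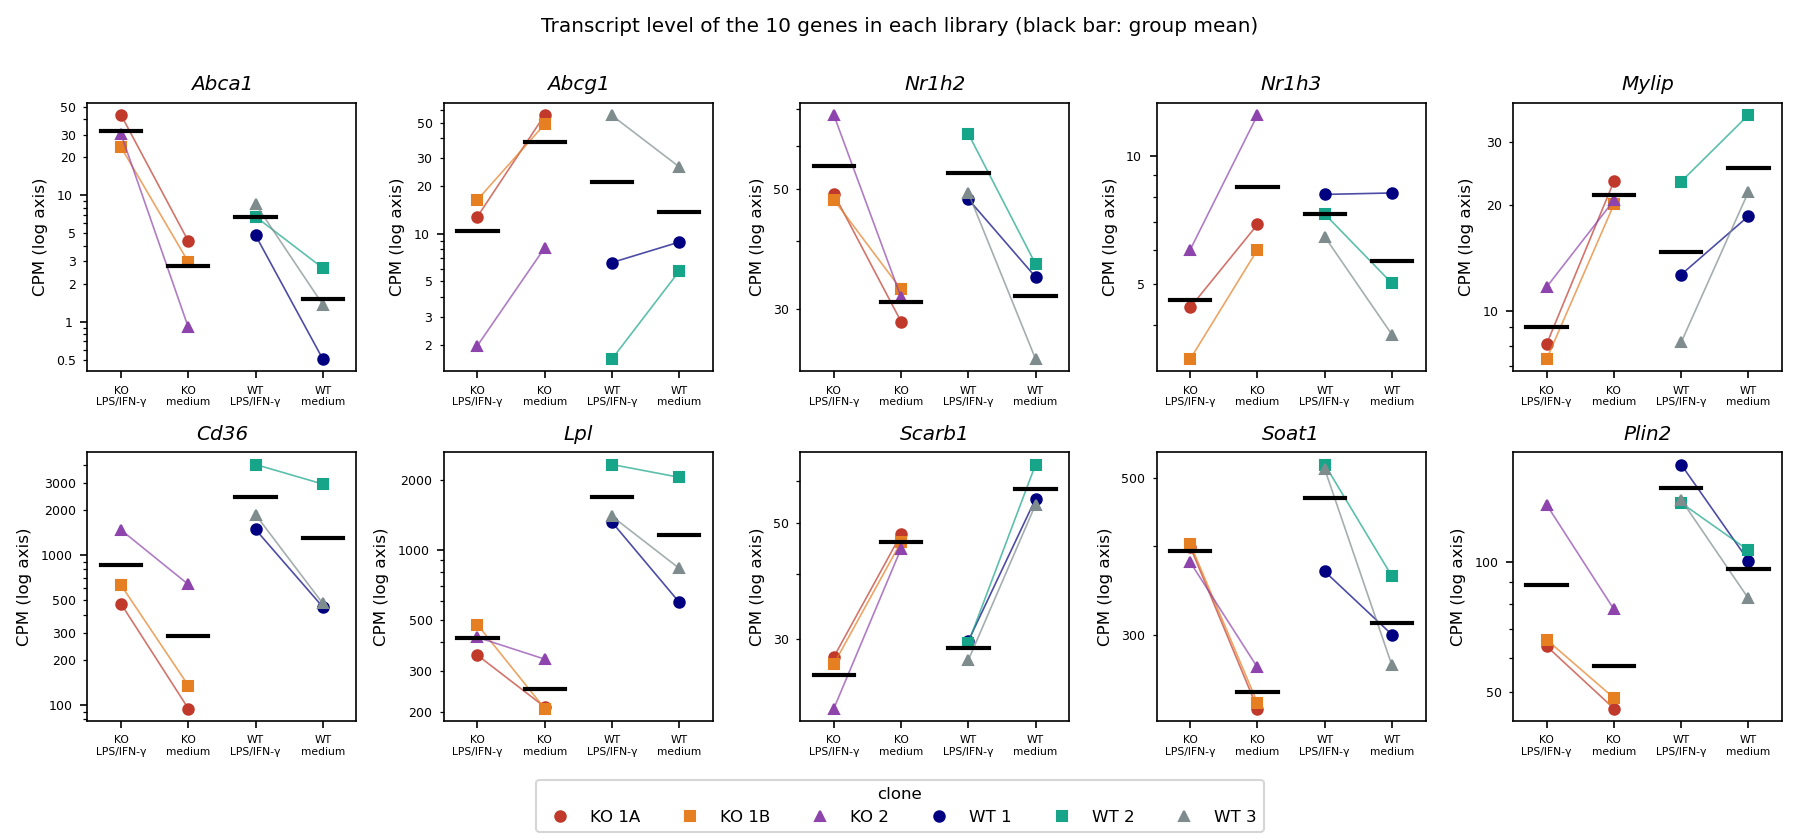
Transcript level of each gene in every library, in CPM on a log axis, with lines joining the 2 libraries of a clone and black bars for group means. For Lpl the 6 KO libraries lie between 208 and 476 CPM and all 6 WT libraries between 595 and 2328 CPM, while Abcg1 and Cd36 spread widely within every group.

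Upstream sequences were read from RefSeq promoter windows (GRCm38.p6), which were matched for 7 of the 10 genes. Abca1 is shown because it had the steepest response of the list, and Cd36 and Plin2 because they are textbook PPAR targets. Each sequence is the 250 bases before a RefSeq transcript start, 5′ to 3′ on the gene's own (minus) strand. The Cd36 window lies inside the gene's annotated span, chr5:17781690-17888801, whose 5′ end is further upstream. Capitals mark a match to a direct repeat of the nuclear receptor core site AGGTCA and, in Abca1, also the E-box CACGTG.
Abca1, chr4:53159896-53160145: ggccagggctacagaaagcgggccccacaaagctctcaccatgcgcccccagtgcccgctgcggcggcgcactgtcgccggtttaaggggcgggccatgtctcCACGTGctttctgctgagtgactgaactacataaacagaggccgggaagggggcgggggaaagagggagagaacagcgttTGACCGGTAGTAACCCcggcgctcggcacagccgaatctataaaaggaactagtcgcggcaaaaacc
Cd36, chr5:17835897-17836146: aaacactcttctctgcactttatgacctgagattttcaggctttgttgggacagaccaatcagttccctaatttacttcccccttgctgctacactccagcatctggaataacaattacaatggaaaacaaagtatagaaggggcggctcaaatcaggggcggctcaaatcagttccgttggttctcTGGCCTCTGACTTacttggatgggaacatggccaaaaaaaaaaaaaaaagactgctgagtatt
Plin2, chr4:86670060-86670309: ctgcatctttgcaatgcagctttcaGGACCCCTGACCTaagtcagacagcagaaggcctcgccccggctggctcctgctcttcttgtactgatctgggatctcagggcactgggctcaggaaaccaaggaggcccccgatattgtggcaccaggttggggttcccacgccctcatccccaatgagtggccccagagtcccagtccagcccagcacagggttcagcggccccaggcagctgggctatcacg
Both strands were searched in the 250 bases above and the 50 after the start. The LXR-type repeat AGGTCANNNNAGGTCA, with up to 3 mismatches in 12 fixed letters, occurred in Abca1 alone of the 7 genes, and 24.5% of all 27025 genes with a window hold such a match. The Abca1 match lies 67 to 52 bases before the start on the opposite strand, where it reads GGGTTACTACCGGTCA, with 3 mismatches. A PPAR-type repeat, AGGTCANAGGTCA with up to 2 mismatches, occurred in Cd36 and Plin2 and in 4.4% of all genes. It reads AAGTCAGAGGCCA in Cd36, 63 to 51 bases before the start, and AGGTCAGGGGTCC in Plin2, 225 to 213 bases before it. The E-box CACGTG was found in Abca1 and Plin2 and in 8.09% of all genes, and the GC box GGGCGG in 5 of the 7 genes and 38.2% of all. The STAT-type TTCNNNGAA, the NF-kB-type GGGNNTTTCC and the interferon element core GAAANNGAAA were not found in the 7 windows; they occurred in 9.55%, 1.89% and 3.99% of all genes. These are matches of letters only.

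Abca1 (chr4:53030787-53159895, minus strand, GRCm38) encodes the pump that loads cholesterol and phospholipid onto lipid-poor apolipoproteins. In KO clones 1A, 1B and 2 it read 43.3, 24.1 and 30.5 CPM under LPS/IFN-gamma, against 4.35, 2.97 and 0.904 CPM in medium. WT clones 1, 2 and 3 read 4.84, 6.79 and 8.55 CPM under LPS/IFN-gamma, against 0.507, 2.66 and 1.37 CPM in medium. The stimulated libraries lay above the unstimulated ones in both genotypes with no overlap, and the stimulated KO libraries lay above all others. The fitted response was 11.8-fold in KO clones (log2 3.56 ± 0.57 SE, adjusted p = 0.00043) and 4.46-fold in WT clones (2.16 ± 0.58, adjusted p = 0.011, edgeR's quasi-likelihood test). The rise showed in 6 of 6 clones. Each clone's own ratio was 9.95, 8.08 and 33.8 in KO clones 1A, 1B and 2 and 9.54, 2.55 and 6.24 in WT clones 1, 2 and 3, so the 2 sets of ratios overlap.

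Under stimulation Abca1 was 4.85-fold higher in KO than in WT clones (log2 2.28 ± 0.54, adjusted p = 0.040 by edgeR, 3 against 3 libraries). In medium the difference was 0.88 ± 0.59 (adjusted p = 0.57), and those groups overlap. The stimulated difference kept its size with KO 1A and 1B summed, at 2.26, but not its call (adjusted p = 0.17; range over 18 alternatives 0.00075 to 0.18). Leaving out any of the 3 stimulated KO libraries, stimulated WT 1 or 2, or medium KO 1A or 1B also ended the call. The difference between the KO and WT responses was 1.40 ± 0.79 on the log2 scale (adjusted p = 1, and 0.44 with the clone block), so a larger rise in KO clones was not shown. The comparison within KO clones and the one between genotypes share the stimulated KO libraries. Counts were low in medium, with 113 reads over the 3 KO libraries and 63 over the 3 WT libraries.

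Abcg1 (chr17:31057675-31117988, plus strand) exports cholesterol to mature HDL and is the classic partner of Abca1 downstream of LXR. It had 12.8, 16.3 and 1.97 CPM in stimulated KO clones 1A, 1B and 2, against 55.8, 48.8 and 8.14 CPM in medium. In WT clones 1, 2 and 3 it had 6.57, 1.62 and 55.4 CPM under LPS/IFN-gamma, against 8.84, 5.80 and 26.3 CPM in medium. Stimulated libraries were lower in all 3 KO clones and in WT clones 1 and 2, and higher in WT clone 3. The fitted change was -1.85 ± 1.19 in KO clones (adjusted p = 0.21) and 0.63 ± 1.15 in WT clones (adjusted p = 0.68), both by edgeR. With clone as a block the KO change was -1.88 with an adjusted p of 0.0083, and the WT change was 0.05 (adjusted p = 0.93). Without stimulated WT clone 3 the WT value turned to -1.73 (adjusted p = 0.25). Abcg1 varied between clones more than 98.8% of tested genes, with a biological coefficient of variation of 92.8%, and stimulated WT clones differed among themselves 34.2-fold. Abcg1 was thus lower in 5 of 6 clones while Abca1 was higher in all 6. The fit did not separate KO from WT clones for Abcg1 in medium (1.45 ± 1.15, adjusted p = 0.64) or under stimulation (-1.03 ± 1.18, adjusted p = 0.67).

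Scarb1 (chr5:125277087-125341094, minus strand) encodes the HDL receptor SR-BI, which moves cholesterol in both directions across the membrane. Stimulated KO clones 1A, 1B and 2 had 27.7, 26.9 and 22.1 CPM, against 47.5, 46.0 and 44.6 CPM in medium. Stimulated WT clones 1, 2 and 3 had 29.8, 29.5 and 27.3 CPM, against 55.6, 64.6 and 54.2 CPM in medium. Every stimulated library was below every unstimulated one. Scarb1 fell 1.80-fold in KO clones (log2 -0.85 ± 0.11, adjusted p = 1e-04) and 2.01-fold in WT clones (-1.01 ± 0.11, adjusted p = 4.5e-05, edgeR), and it was called under all 20 alternatives in both. It was the steadiest of the 10 genes, with a coefficient of variation of 11.6% between clones. In medium the KO clones lay just under the WT clones without overlap, at -0.34 ± 0.11, but this missed the threshold (adjusted p = 0.18). Under stimulation the difference was -0.17 ± 0.11 (adjusted p = 0.41).

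**Figure D2:**
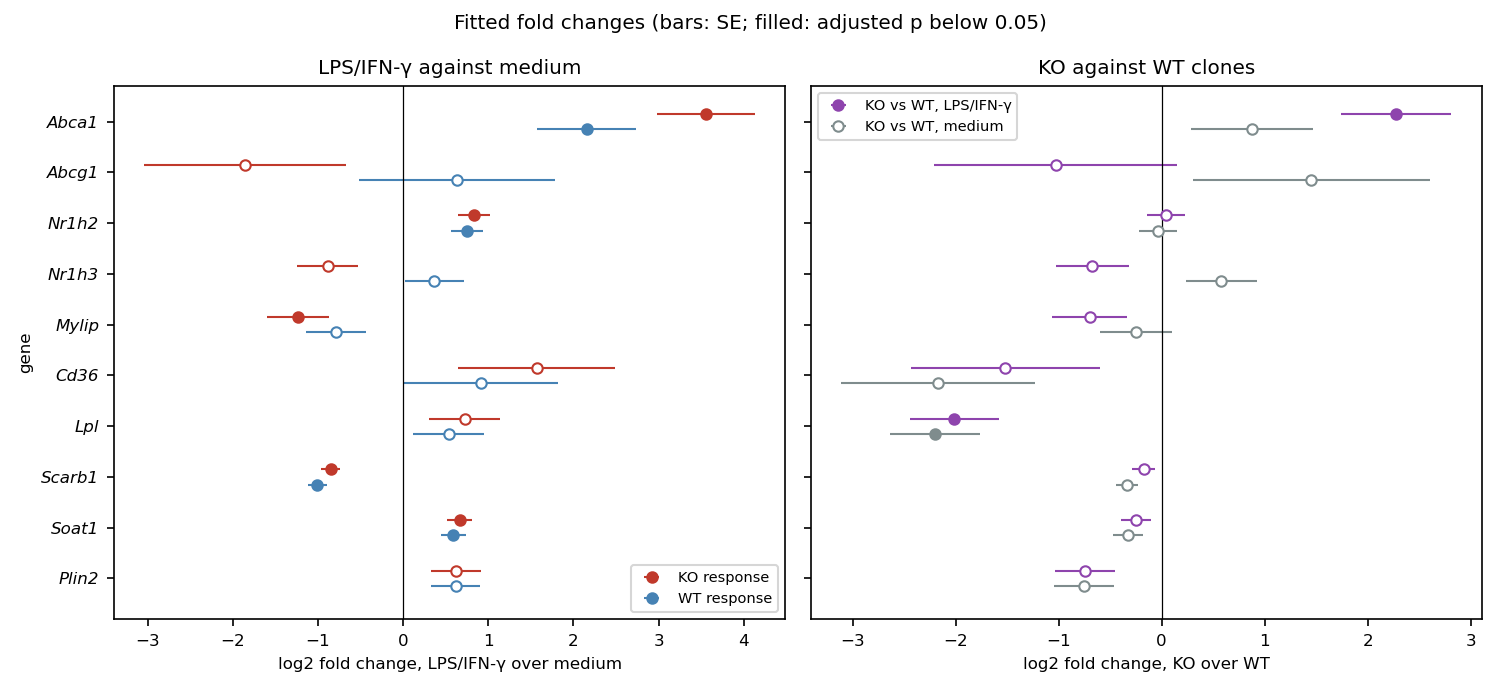
Fitted log2 fold changes with SE bars for LPS/IFN-gamma over medium (left: KO in red, WT in blue) and KO over WT (right: LPS/IFN-gamma in purple, medium in grey), where filled points passed an adjusted p of 0.05. Abca1 has the highest response in both genotypes, at 3.56 in KO and 2.16 in WT clones, and Lpl is the gene with filled points in both genotype comparisons.

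The LXR genes themselves behaved unlike each other. Nr1h2 (chr7:44549616-44553951, minus strand) read 48.9, 47.7 and 68.3 CPM in stimulated KO clones 1A, 1B and 2, against 28.5, 32.7 and 31.6 CPM in medium. WT clones 1, 2 and 3 read 47.8, 63.1 and 49.1 CPM under LPS/IFN-gamma, against 34.4, 36.3 and 24.3 CPM in medium. Stimulated and unstimulated libraries did not overlap in either genotype, while KO and WT libraries did in both conditions. Nr1h2 rose 1.78-fold in KO clones (log2 0.83 ± 0.19, adjusted p = 0.0033) and 1.68-fold in WT clones (0.75 ± 0.19, adjusted p = 0.0070, edgeR). With library totals in place of TMM factors the WT value was 0.39 and no longer passed (adjusted p = 0.074, range over 20 alternatives 0.00073 to 0.074); this scaling moved the median of all genes to -0.37 in WT and -0.39 in KO clones. Between genotypes the log2 difference was 0.04 under stimulation (95% interval -0.36 to 0.45) and -0.03 in medium (-0.45 to 0.38).

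Nr1h3 (chr2:91184061-91202834, minus strand), whose product is the LXR form made at high level in macrophages and liver, was scarce. It had 4.40, 3.32 and 6.02 CPM in stimulated KO clones 1A, 1B and 2, against 6.90, 6.02 and 12.5 CPM in medium. In WT clones 1, 2 and 3 it had 8.12, 7.30 and 6.46 CPM under LPS/IFN-gamma, against 8.19, 5.01 and 3.79 CPM in medium. Each KO clone was lower when stimulated, WT clones 2 and 3 were higher, and WT clone 1 hardly moved. The KO change of -0.89 ± 0.35 missed the threshold by edgeR (adjusted p = 0.054) and passed with the clone block (-0.86, adjusted p = 0.0035). In WT clones the change was 0.37 ± 0.35 (adjusted p = 0.41, and 0.087 with the block). The responses differed by -1.25 ± 0.50, with an unadjusted p of 0.029 and an adjusted p of 0.93 by edgeR, or 0.10 with the block. Under stimulation all 3 KO libraries lay below all 3 WT libraries (-0.67 ± 0.36, adjusted p = 0.31), and in medium the groups overlap (0.58 ± 0.35, adjusted p = 0.51). These levels rest on 34 to 152 counts per library.

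Mylip (chr13:45389742-45412022, plus strand) read 8.08, 7.33 and 11.7 CPM in stimulated KO clones 1A, 1B and 2, against 23.2, 20.01 and 20.6 CPM in medium. In WT clones 1, 2 and 3 it read 12.7, 23.2 and 8.17 CPM under LPS/IFN-gamma, against 18.5, 35.8 and 21.7 CPM in medium. It was lower on stimulation in 6 of 6 clones, and the 2 conditions overlap in WT but not in KO clones. Mylip fell 2.36-fold in KO clones (log2 -1.24 ± 0.36, adjusted p = 0.015), and the WT change was -0.79 ± 0.36 (adjusted p = 0.091, edgeR; -0.84 with an adjusted p of 0.0043 with the block). The KO call was lost with KO 1A and 1B summed (-1.12, adjusted p = 0.095) and without stimulated KO 1A (0.052) or 1B (0.056); over 20 alternatives its adjusted p ran from 0.00049 to 0.095. Among the LXR targets of the list, then, Abca1 was higher and Mylip lower in all 6 clones, and Abcg1 was lower in 5.

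**Figure D3:**
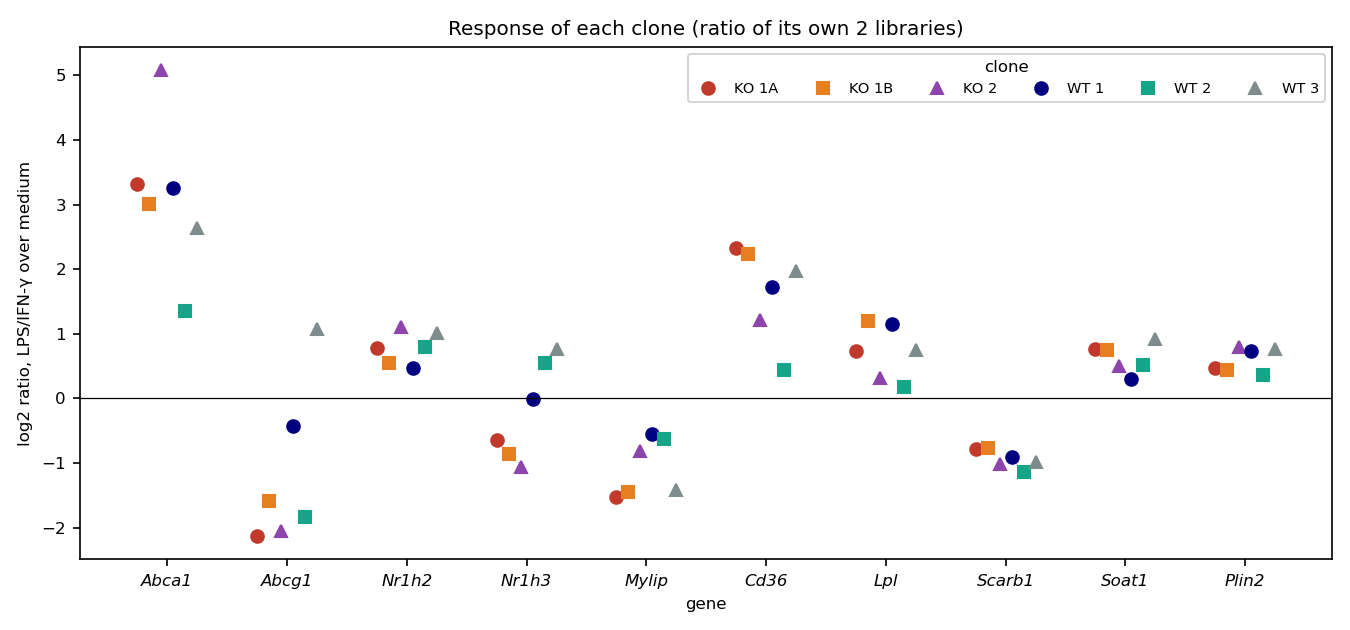
Log2 ratio of stimulated over unstimulated library within each clone, KO clones left of WT clones for every gene. Abca1, Nr1h2, Cd36, Lpl, Soat1 and Plin2 are above 0 in all 6 clones, Scarb1 and Mylip are below 0 in all 6, and Nr1h3 is below 0 in the 3 KO clones. Agreement in all 6 clones was not counted over all tested genes. The clone block called 66.1% of all genes in KO and 61.2% in WT clones.

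Lpl (chr8:68880491-68907448, plus strand) encodes lipoprotein lipase, which frees fatty acids from triglyceride-rich lipoproteins. It read 352, 476 and 420.3 CPM in stimulated KO clones 1A, 1B and 2, against 1316, 2328 and 1394 CPM in stimulated WT clones 1, 2 and 3. In medium KO clones read 211, 208 and 339 CPM, against 595, 2051 and 833 CPM in WT clones. Every KO library lay below every WT library, whatever the condition. Lpl was 4.03-fold lower in KO clones under LPS/IFN-gamma (log2 -2.01 ± 0.43, adjusted p = 0.029) and 4.59-fold lower in medium (-2.20 ± 0.44, adjusted p = 0.041, edgeR). With KO 1A and 1B summed the differences were -2.001 (adjusted p = 0.17) and -2.08 (adjusted p = 0.30). Over 18 alternatives the adjusted p ran from 4e-05 to 0.17 under stimulation, where 12 kept the call, and from 6.3e-06 to 0.30 in medium, where 8 kept it.

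WT clone 2 had the highest Lpl in both conditions. Without its library in medium the medium difference was -1.50 (adjusted p = 0.069), the smallest of any left-out library, and without its stimulated library the stimulated difference was -1.70 (adjusted p = 0.082). The medium call was also lost without any 1 of the 6 KO libraries or without stimulated WT clone 1, and the stimulated call without any 1 of the 3 stimulated KO libraries. Fitting the 2 medium groups alone gave -2.18 (adjusted p = 0.14). Stimulated over medium, Lpl was higher in 6 of 6 clones, by 0.72 ± 0.42 in KO clones (adjusted p = 0.17) and 0.53 ± 0.42 in WT clones (adjusted p = 0.32). Both passed with clone as a block in edgeR, at 0.75 in KO clones (adjusted p = 0.014) and 0.69 in WT clones (adjusted p = 0.021). Both also passed without WT clone 2 in medium, at 0.72 in KO (adjusted p = 0.048) and 1.22 in WT clones (adjusted p = 0.011). The KO response also passed when only the 2 KO groups were fitted (0.72, adjusted p = 0.018). With KO 1A and 1B summed in the block fit, the WT response passed (0.69, adjusted p = 0.024) and the KO response did not. Of 20 alternatives 3 called each response.

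Cd36 (chr5:17781690-17888801, minus strand), the scavenger receptor for oxidised LDL and a carrier of long-chain fatty acids, was, like Lpl, highest in WT clone 2. Stimulated KO clones 1A, 1B and 2 read 471, 629 and 1467 CPM, against 1478, 4015 and 1858 CPM in stimulated WT clones 1, 2 and 3. In medium the KO clones read 94.3, 134 and 636 CPM, against 449.6, 2973 and 475 CPM in WT clones. Under stimulation KO clone 2 came close to WT clone 1 without overlap, and in medium KO clone 2 lay above WT clones 1 and 3. The KO over WT difference was -1.52 ± 0.92 under LPS/IFN-gamma (adjusted p = 0.38) and -2.17 ± 0.94 in medium (adjusted p = 0.33), neither past the threshold. Cd36 varied between clones more than 97.6% of tested genes, with a coefficient of variation of 72.4%. On stimulation it was higher in 6 of 6 clones, by 1.57 ± 0.92 in KO clones (adjusted p = 0.17; 1.92 with the block, adjusted p = 0.0037) and 0.92 ± 0.91 in WT clones (adjusted p = 0.43; 1.38 with the block, adjusted p = 0.016).

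Soat1 (chr1:156424525-156474331, minus strand), the enzyme that esterifies cholesterol for storage, read 399, 403 and 379.7 CPM in stimulated KO clones 1A, 1B and 2, against 236, 240.1 and 269.5 CPM in medium. WT clones 1, 2 and 3 read 368, 522 and 514 CPM under LPS/IFN-gamma, against 299.9, 363 and 271 CPM in medium. Stimulated libraries lay above unstimulated ones in each genotype, with the lowest stimulated WT library close to the highest unstimulated one. Soat1 rose 1.59-fold in KO clones (log2 0.66 ± 0.15, adjusted p = 0.0031) and 1.50-fold in WT clones (0.59 ± 0.15, adjusted p = 0.0074, edgeR). With library totals as the scaling both calls were lost (0.29, adjusted p = 0.10 in KO; 0.23, adjusted p = 0.19 in WT), and the WT call was lost when only the 2 WT groups were fitted (adjusted p = 0.054). Between genotypes the difference was -0.25 ± 0.15 under stimulation and -0.33 ± 0.15 in medium (adjusted p = 0.36 for each).

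Plin2 (chr4:86648386-86670060, minus strand), which coats lipid droplets, read 63.9, 66.2 and 136 CPM in stimulated KO clones 1A, 1B and 2, against 168, 137 and 139.6 CPM in stimulated WT clones 1, 2 and 3. In medium KO clones read 45.9, 48.5 and 77.9 CPM, against 101, 107 and 82.5 CPM in WT clones. KO libraries were below WT libraries in both conditions without overlap, but KO clone 2 lay close to the WT range each time. The difference was -0.74 ± 0.29 under LPS/IFN-gamma (adjusted p = 0.17) and -0.75 ± 0.29 in medium (adjusted p = 0.27), so neither passed. Plin2 was higher on stimulation in 6 of 6 clones, by 0.63 ± 0.29 in KO clones (adjusted p = 0.093; 0.58 with the block, adjusted p = 0.0012) and 0.62 ± 0.29 in WT clones (adjusted p = 0.10; 0.62 with the block, adjusted p = 0.00082).

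Dividing CPM by the length of all annotated exons allowed the genes to be set in order of level. Cd36 had the highest mean in every group, at 238 CPM per kb in stimulated KO clones and 80.3 in KO medium, against 683 in stimulated WT clones and 362 in WT medium. In medium its libraries overlapped those of the next gene, Soat1 in KO clones and Lpl in WT clones. Lpl ranked behind Cd36 in WT clones, at 160 CPM per kb stimulated and 111 in medium. In KO clones Soat1 (40.2 stimulated, 25.4 in medium) and Lpl (39.7 and 24.1) shared that place, and their libraries overlap. Soat1 followed in WT clones, at 47.8 stimulated and 31.8 in medium, and Plin2 and Nr1h2 came next in all 4 groups. Nr1h2 exceeded Nr1h3 per kb in all 12 libraries, 8.34- to 10.8-fold in stimulated KO clones, 1.89- to 4.07-fold in KO medium, 4.42- to 6.48-fold in stimulated WT clones and 3.15- to 5.44-fold in WT medium. Abca1 was last at 0.265 CPM per kb in KO medium, 0.649 in stimulated WT clones and 0.146 in WT medium. In stimulated KO clones it reached 3.15, in sixth place, where it did not part from Scarb1 at 3.01 or Mylip at 2.80. Abcg1 was last there at 1.42 CPM per kb, its libraries overlapping those of Nr1h3 at 1.82.

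**Figure D4:**
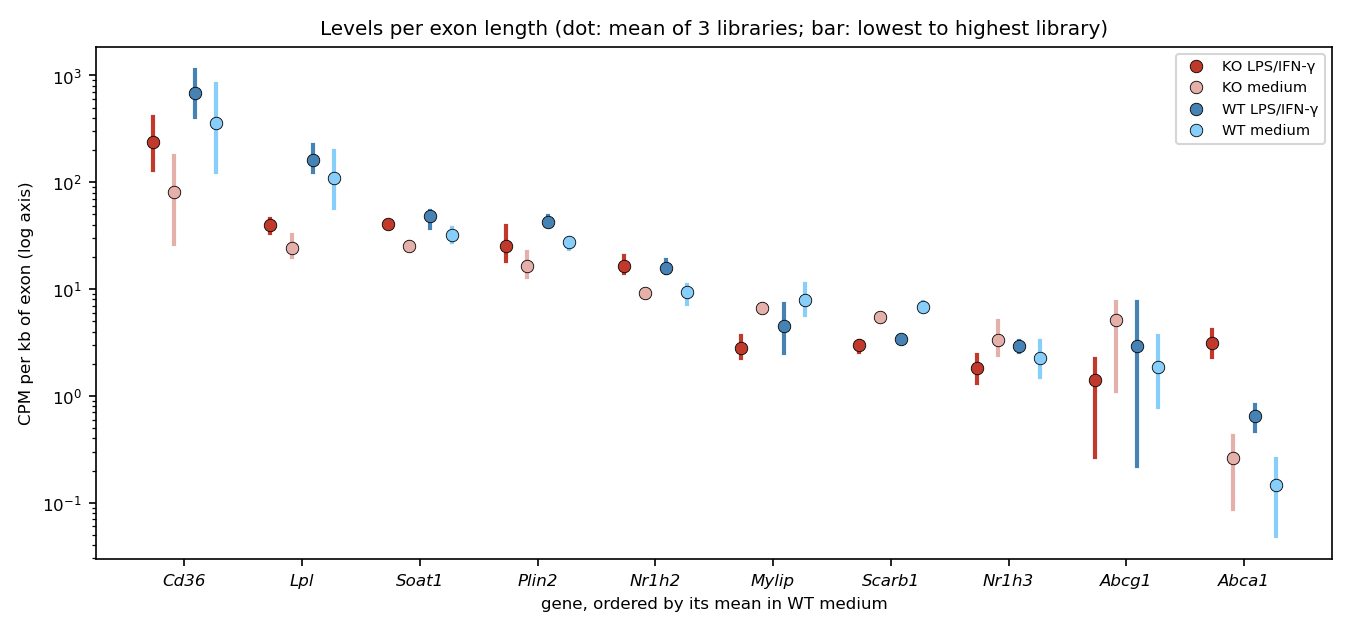
Levels in CPM per kb of exon on a log axis, with genes ordered by their mean in WT medium, dots for means of 3 libraries and bars for the lowest and highest library. Abca1 moves out of last place only in stimulated KO clones, where it averages 3.15 CPM per kb.

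Genes with a pattern across the 12 libraries most like 3 of the members were picked by Pearson's r of log2 CPM among protein-coding genes; the libraries share clones and stimulation, and the r values are a description. For Abca1 these were Cstf3 (r = 0.966), Slc25a47 (0.960) and Prkar1a (0.956). Prkar1a, a regulatory subunit of protein kinase A, averaged 237 ± 7.91 CPM in stimulated KO clones and 159 ± 9.37 in KO medium, with 196 ± 18.9 in stimulated WT clones and 146 ± 7.46 in WT medium (SD, n = 3 each). For Lpl they were Tbxas1 (0.970), the thromboxane synthase, Kitl (0.964), the ligand of the Kit receptor, and Ccr2 (0.955), a chemokine receptor of monocytes. Ccr2 averaged 3.64 ± 0.861 CPM in stimulated KO clones and 29.9 ± 19.2 in stimulated WT clones, and 0.727 ± 0.109 CPM in KO medium and 15.0 ± 16.8 in WT medium. For Plin2 they were Dpep2 (0.959), the hexokinase Hk3 (0.953) and Ift43 (0.948).

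The wider pathway was read from 5 lists of other genes. Their counts stand against the 54.3% of all genes called in KO clones and the 47.4% in WT clones, or 66.1% and 61.2% with clone as a block. Of 15 further LXR targets 11 were tested. In KO clones Mertk rose and Arl4c fell, which is 18.2% of the tested genes, and in WT clones Tgm2 rose, which is 9.09%; both shares are below the background. The list's median log2 change was -0.20 in KO clones and -0.26 in WT clones. The clone block gave counts of 3 higher and 4 lower in KO clones, and 1 higher and 5 lower in WT clones, both shares below that of all genes in that fit. Mertk, a receptor for dying cells, had 77 counts over the 3 stimulated KO libraries and 2 in KO medium, a ratio of 53.2 with a 95% counting interval of 14.2 to 447. In WT clones it had 19 counts stimulated and 9 in medium, all 9 in WT clone 2 (log2 1.44 ± 1.04, adjusted p = 0.28 by edgeR). Arl4c had 1 count in stimulated KO clones and 95 in KO medium, 71 of them in KO clone 2. That is 68.7-fold lower with stimulation, and the 95% counting interval of 12 to 2740 does not cover the spread between clones. In WT clones Arl4c had 1 count stimulated and 26 in medium, 19 of them in WT clone 2. That is a 19.1-fold lower level (95% counting interval 3.14 to 784, adjusted p = 0.076 by edgeR, and 0.0013 with the block). Tgm2, a transglutaminase, read 19.5, 96.9 and 7.12 CPM in stimulated WT clones, against 1.01, 4.86 and 1.62 CPM in medium. In KO clones it read 4.91, 6.65 and 19.7 CPM stimulated, against 2.47, 3.92 and 3.62 CPM in medium (1.63 ± 0.94, adjusted p = 0.16; 0.027 with the block). Mertk and Tgm2 were thus higher, and Arl4c lower, in 6 of 6 clones. Apoe, the lipoprotein that accepts exported cholesterol, changed by -0.11 ± 0.29 in KO clones (adjusted p = 0.76) and -0.14 ± 0.29 in WT clones (adjusted p = 0.72); it is named here after its values were seen.

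LXR partners, corepressors and oxysterol enzymes gave 2 higher and 6 lower of 11 tested in KO clones, and 2 higher and 4 lower in WT clones, with medians of -0.44 and -0.31. That is 72.7% of those tested in KO clones (54.3% of all genes) and 54.5% in WT clones (47.4% of all genes). The block called 2 higher and 6 lower in each genotype. The KO count was 4 with KO 1A and 1B summed, and the WT count 2 when only the WT groups were fitted. Ch25h, which makes 25-hydroxycholesterol, an LXR ligand, had 76 counts in stimulated KO clones and 0 in KO medium, which makes it at least 35.0-fold higher if KO medium is set at the floor of 3 reads per group. In WT clones it had 97 and 8 counts, a ratio of 16.5 (95% counting interval 8.05 to 39.3). Cyp27a1, the 27-hydroxylase, fell 5.56-fold in KO clones (log2 -2.47 ± 0.25, adjusted p = 1.9e-05) and 3.73-fold in WT clones (-1.90 ± 0.24, adjusted p = 0.00012). Rxrb, one of the RXR partners of LXR, fell by 0.73 ± 0.10 in KO clones (adjusted p = 0.00014) and by 0.91 ± 0.10 in WT clones (adjusted p = 4.7e-05).

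Of 20 fatty acid uptake and PPAR genes 14 were tested: 5 rose and 7 fell in KO clones, and 5 rose and 4 fell in WT clones, with medians of -0.08 and 0.13. That is 85.7% of those tested in KO clones (54.3% of all genes) and 64.3% in WT clones (47.4% of all genes). The block gave 5 higher and 7 lower in KO clones, and 6 higher and 6 lower in WT clones, so 12 of 14 were called in each. With 1 library left out of the fit without the block, the count ran from 9 to 12 in KO clones and from 7 to 9 in WT clones. The acyl-CoA synthetase gene Acsl4 rose by 1.76 ± 0.19 in KO clones (adjusted p = 2.5e-05) and 1.49 ± 0.18 in WT clones (adjusted p = 9.4e-05), and Acsl1 by 0.79 ± 0.21 (adjusted p = 0.0078) and 1.35 ± 0.21 (adjusted p = 0.00039). Ppard rose by 1.30 ± 0.27 in KO clones (adjusted p = 0.0018) and 1.48 ± 0.26 in WT clones (adjusted p = 0.00083). Angptl4, an inhibitor of the Lpl enzyme and a PPAR target, fell 8.88-fold in KO clones (log2 -3.15 ± 0.63, adjusted p = 0.0016) and 9.13-fold in WT clones (-3.19 ± 0.62, adjusted p = 0.0017). Fabp4, a fatty acid carrier, had 202 counts in stimulated KO clones and 4 in KO medium, and 62 in stimulated WT clones and 2 in WT medium. The ratio was 69.8 in KO clones (95% counting interval 26.9 to 259) and 42.2 in WT clones (11.2 to 356).

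Of 19 lipoprotein uptake and lysosomal genes 17 were tested: 5 rose and 3 fell in KO clones, and 5 rose and 2 fell in WT clones, with medians of 0.15 and 0.11. These shares, 47.1% and 41.2%, are below those of all genes. The block called 7 higher and 4 lower in KO clones, and 6 higher and 4 lower in WT clones. The scavenger receptor gene Msr1 rose 11.4-fold in KO clones (log2 3.51 ± 0.52, adjusted p = 0.00027) and 3.67-fold in WT clones (1.87 ± 0.48, adjusted p = 0.0089); the responses differed by 1.63 ± 0.66 (adjusted p = 0.94). The lysosomal cholesterol carriers Npc2 and Stard3 rose as well, Npc2 by 1.42 ± 0.29 in KO clones (adjusted p = 0.0017) and 1.50 ± 0.29 in WT clones (adjusted p = 0.0015), and Stard3 by 1.41 ± 0.15 (adjusted p = 2.6e-05) and 0.96 ± 0.15 (adjusted p = 0.00040). Of 20 lipid droplet and ester cycle genes 11 were tested, with 4 higher and 2 lower in KO clones and 2 higher and 1 lower in WT clones (medians 0.14 and 0.05). At 54.5% in KO clones this share is close to that of all genes, and at 27.3% in WT clones it is below it; the block moved the WT count to 3 higher and 1 lower. Hilpda, an inhibitor of droplet lipolysis, rose by 2.17 ± 0.58 in KO clones (adjusted p = 0.0096) and 2.38 ± 0.58 in WT clones (adjusted p = 0.0072). The lipase gene Lipe rose by 0.92 ± 0.14 (adjusted p = 0.00034) and 0.80 ± 0.14 (adjusted p = 0.00097). Pnpla2, the main triglyceride lipase of droplets, rose by 1.09 ± 0.26 in KO clones (adjusted p = 0.0049), with 0.61 ± 0.26 in WT clones (adjusted p = 0.075; 0.0025 with the block). Soat2 rose by 1.01 ± 0.27 in KO clones (adjusted p = 0.0079), with 0.20 ± 0.27 in WT clones (adjusted p = 0.56). Nceh1, which hydrolyses cholesteryl ester, fell by 0.64 ± 0.22 in KO clones (adjusted p = 0.029) and by 0.78 ± 0.22 in WT clones (adjusted p = 0.013).

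**Figure D5:**
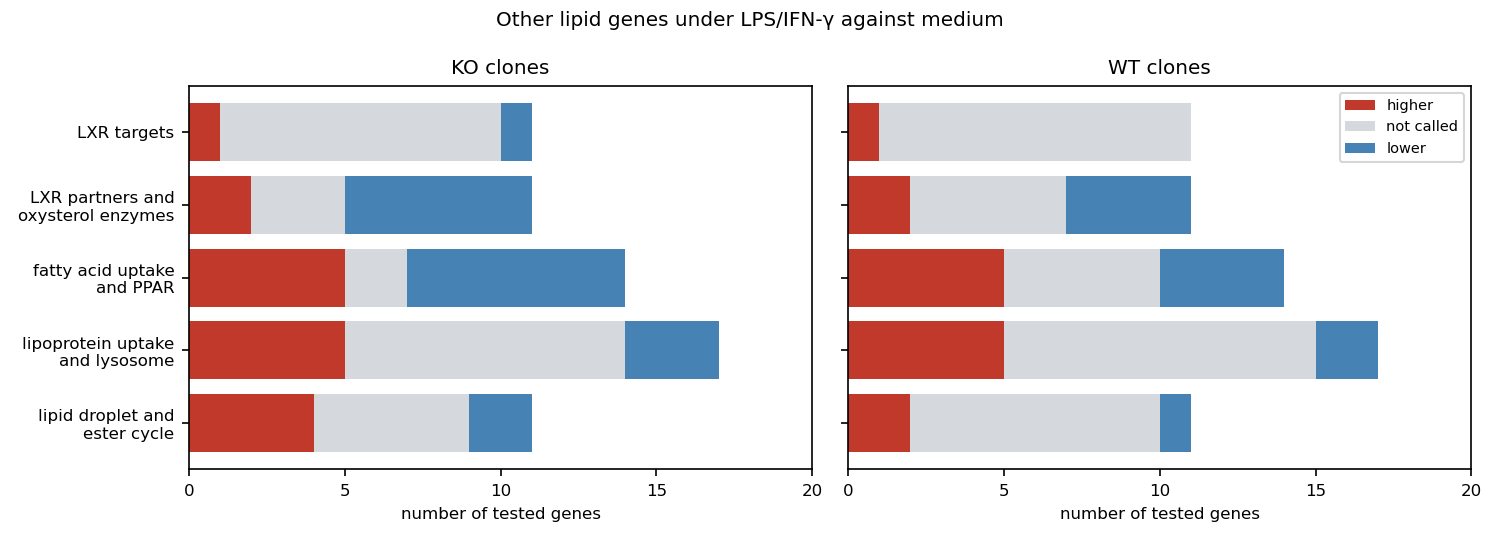
Number of tested genes of each pathway list that were higher (red), not called (grey) or lower (blue) under LPS/IFN-gamma, KO clones left and WT clones right. Fatty acid uptake and PPAR genes had most calls, 12 of 14 in KO clones and 9 of 14 in WT clones (12 of 14 in each with clone as a block), where 54.3% and 47.4% of all genes were called. These 2 counts fell to as few as 9 and 7 with 1 library left out.

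Between genotypes 4 genes of the 5 lists were called, all lower in KO clones. They were 2 of 64 tested in each condition, or 3.12%, where 1.21% of all genes were called in medium and 4.64% under LPS/IFN-gamma, most of them lower, so the lists stand near the background. In medium Msr1 read 27.5, 25.3 and 91.8 CPM in KO clones 1A, 1B and 2, against 380, 390 and 192 CPM in WT clones 1, 2 and 3 (log2 -2.74 ± 0.50, adjusted p = 0.031). Abhd5, the activator of the Pnpla2 lipase, read 42.8, 41.4 and 43.5 CPM in KO clones, against 59.8, 96.3 and 76.0 CPM in WT clones (-0.86 ± 0.16, adjusted p = 0.033). Under LPS/IFN-gamma Cpt1a, which admits fatty acids to mitochondria, read 18.1, 20.9 and 34.7 CPM in KO clones, against 73.3, 73.9 and 38.6 CPM in WT clones (-1.34 ± 0.32, adjusted p = 0.043). Scarb2, a lysosomal membrane protein, read 67.3, 64.1 and 79.9 CPM in KO clones, against 115, 113 and 127 CPM in WT clones (-0.75 ± 0.16, adjusted p = 0.028). No library of 1 genotype overlapped the other for these 4 genes. They were picked by calls on these same libraries, so the gap adds no support of its own. With KO 1A and 1B summed none passed, at -2.45 for Msr1 (adjusted p = 0.21), -0.85 for Abhd5 (0.25), -1.20 for Cpt1a (0.24) and -0.70 for Scarb2 (0.17). With only the 2 groups compared in the fit none passed either, at -2.72 (0.14), -0.84 (0.085), -1.32 (0.13) and -0.74 (0.051) in the same order.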

How the data were processed

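The authors deposited 1 table of whole-number gene counts for the 12 libraries, keyed by Ensembl gene. The build was GRCm38 (mm10) and DESeq2 was among the tools, per the submitters' processing notes; the aligner, the counter and the use of strand were not given in the sources used here. GENCODE release M21 named 12305 of 12483 genes and gave the exon lengths behind levels per kb. Other genes' exons covered at most 1.35% of the exons of any of the 10 genes, and 21.8% in Tgm2, the highest share among the named list genes. No listed gene fell under 5 counts in its second-highest library.

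Counts were analysed in R 4.3.3 with edgeR 4.0.16. After filterByExpr, 12231 genes were scaled by TMM and fitted by robust quasi-likelihood, using a mean for each of the 4 groups. Adjusted p-values are Benjamini-Hochberg over all tested genes, called below 0.05. The 8 residual degrees of freedom are shared by all groups, so leaving out a library of another group can move a p. Values after ± are SE for fold changes and SD for levels, and CPM use TMM-scaled totals. The fit was also run on data simulated from these libraries. No outcome of that run is given here, so it lends no weight to the calls.

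Labels give each clone 1 library per condition, which pairs libraries for the responses and the interaction. The 2 libraries of a clone deviated from their group means together, with r of 0.321, 0.287 and 0.508 in KO 1A, 1B and 2. In WT 1, 2 and 3 this r came to 0.642, 0.700 and 0.620. Set against other clones, the highest r reached 0.274 (KO 1A) and 0.182 (KO 1B), not far below their own. KO 2 gave -0.346 there, and WT 1, 2 and 3 gave -0.203, -0.369 and -0.114. Pairing by clone thus stood out less in KO 1A and 1B. Blocking on clone leaves 4 residual degrees of freedom. Block values appear mostly where a call changes, and in some places where none did. Alternatives were RLE factors, library totals, no filter, DESeq2 1.42.0, the clone block, KO 1A and 1B summed, only the groups compared, and each library left out; the clone block with KO 1A and 1B summed was chosen after seeing the data. Counting intervals and the floor of 3 counts cover counting error only.

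The 10 genes, the 5 lists and the rules were chosen with earlier results of these data known. Named genes were the 10, up to 3 called genes with the smallest p per list and comparison, and the 3 genes most like Abca1, Lpl and Plin2. A result of that rule is not reported here.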

Additional observations from a re-analysis of the deposited data

Results flagged for a closer look

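Cpt1a, the gate of fatty acid entry into mitochondria, was the 1 gene of the 10 members and the named list genes whose LPS/IFN-gamma response differed between genotypes by a test of that difference. With clone as a block its response was lower in KO than in WT clones by -0.93 on the log2 scale (adjusted p = 0.044, edgeR), and it was 1 of 40 genes called in that fit. Without the block the difference was -0.91 with an adjusted p of 1; over 19 alternatives the adjusted p ran from 0.044 to 1, and with KO 1A and 1B summed and the block no gene was called. The response itself was -1.56 ± 0.32 in KO clones (adjusted p = 0.0021) and -0.64 ± 0.31 in WT clones (adjusted p = 0.11; 0.00038 with the block), lower in all 3 KO and all 3 WT clones.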

How the results depend on the processing

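In the responses the count of the 10 genes called moved with clone as a replicate block: 10 in KO clones and 8 in WT clones, and 9 and 8 with KO 1A and 1B also summed. Lpl was the gene then lost in KO clones. The block fit pairs each clone's libraries and changed no call of the 10 genes on the interaction. In KO against WT the count under LPS/IFN-gamma was 0 with KO 1A and 1B summed and 0 to 2 with 1 library left out; in medium it was 0 with them summed, 0 when only the 2 medium groups were fitted and 0 to 1 with 1 library left out. The cause of these moves was not tested. The summed fits also hold fewer libraries. Over all genes the summed fit called 73 genes under LPS/IFN-gamma and 16 in medium, DESeq2 1187 and 618, and fits of only the groups compared 96 and 89. With library totals the called genes split into 1793 higher and 5520 lower in KO clones, against 3260 and 3378 by TMM, and 1586 higher and 5240 lower in WT clones, against 2913 and 2883.

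Signs that turned belonged to values that had not passed. Leaving out 1 library at a time, Abcg1 ranged from -1.57 to 1.33 in KO against WT under LPS/IFN-gamma and from -1.73 to 1.51 in the WT response. Nr1h2 ranged from -0.14 to 0.18 in KO against WT under LPS/IFN-gamma and from -0.20 to 0.071 in medium, where library totals gave 0.024, and Mylip from -0.44 to 0.075 in medium. In the interaction the ranges were -0.51 to 0.51 for Lpl, -0.84 to 1.99 for Cd36, -0.11 to 0.24 for Nr1h2, -0.78 to 0.042 for Mylip, -0.44 to 0.30 for Plin2 and -0.070 to 0.17 for Soat1. The interaction of Lpl was -0.032 with the summed block fit, and that of Plin2 -0.027 with library totals and -0.042 with the block. The responses of Abca1, Scarb1, Nr1h2 and Soat1 kept their direction in every fit run. Depth limits Abca1 and Nr1h3 most, and also Abcg1 in stimulated KO clone 2 (18 counts) and stimulated WT clone 2 (16 counts). The KO groups may hold only 2 independent clones.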
